A study of Mus musculus with 6 samples.

Results

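Interferon-inducible GTPases were measured by RNA sequencing in mouse peritoneal macrophages in which S-adenosylhomocysteine hydrolase (SAHH, gene Ahcy) had been targeted, and in control macrophages. The genes are Irgm1, Irgm2, Igtp, Iigp1, Tgtp1, Tgtp2 and Ifi47 of the immunity-related GTPase (IRG) family and Gvin1, a very large interferon-inducible GTPase, and they were taken by name from the deposited table, which holds all 8 among its 54532 genes. The 3 SAHH-KO libraries are described in the labels both as a knockout and as a knockdown, and the 3 control libraries both as shControl and as WT, so the names SAHH-KO and control are kept here without a choice between these. Cells of both groups were elicited with thioglycollate, collected after 4 days, purified by adherence for 6 h, and then given interferon-γ at 2 ng/mL with lipopolysaccharide at 10 ng/mL for 8 h. All values therefore describe stimulated cells, and unstimulated cells were not analysed here. The strain, sex and age of the mice and the cells that carry the SAHH change are not given in the sources used here, nor whether replicates are separate mice, separate dishes or repeat libraries. The p-values therefore reflect the spread among these libraries only, which may be technical.

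IRG proteins are among the most abundant products of interferon-treated mouse cells, where they gather on the vacuoles of intracellular microbes such as Toxoplasma gondii and Chlamydia trachomatis and break them open. The regulatory members Irgm1, Irgm2 and Igtp (also called Irgm3) sit on the cell's own membranes and hold the effector members in their inactive, GDP-bound state. The effectors include Iigp1 (Irga6), Tgtp1 and Tgtp2 (Irgb6) and Ifi47 (Irgd). Their genes are switched on by interferon-γ through the kinases JAK1 and JAK2 and promoter elements called gamma-activated sites (GAS), and by type I interferon through STAT2, IRF9 and interferon-stimulated response elements (ISRE). IRF1 binds ISRE-type sequence as well.

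The sequence before the start of these genes is shown first, because both kinds of element can be looked for in it. RefSeq (GRCm38.p6) gave promoters for 6 of the 8 genes, Irgm1, Irgm2, Igtp, Tgtp1, Tgtp2 and Ifi47, and the 250 bases before each start follow, 5′ to 3′ on the gene's strand. Capitals mark matches to the GAS-type letters TTCNNNGAA and to an ISRE-type repeat (GAAA, any 2 bases, GAAA), both searched on both strands. The windows lie at chr11:58214727-58214976 (plus strand) for Irgm2, chr11:58199306-58199555 (plus) for Igtp, chr11:48992247-48992496 (minus) for Tgtp1, chr11:49064213-49064462 (minus) for Tgtp2, chr11:48871421-48871670 (minus) for Irgm1 and chr11:49076337-49076586 (plus) for Ifi47.
Irgm2: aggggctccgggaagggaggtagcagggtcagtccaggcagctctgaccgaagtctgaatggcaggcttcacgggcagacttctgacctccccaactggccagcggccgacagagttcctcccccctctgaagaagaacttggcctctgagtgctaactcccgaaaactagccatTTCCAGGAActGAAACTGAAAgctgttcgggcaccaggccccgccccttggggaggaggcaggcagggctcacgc
Igtp: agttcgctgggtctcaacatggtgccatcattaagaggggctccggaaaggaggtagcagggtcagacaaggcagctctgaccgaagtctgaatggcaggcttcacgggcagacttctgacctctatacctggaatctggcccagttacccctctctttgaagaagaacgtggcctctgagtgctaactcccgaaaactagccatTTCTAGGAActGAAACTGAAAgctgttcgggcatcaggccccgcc
Tgtp1: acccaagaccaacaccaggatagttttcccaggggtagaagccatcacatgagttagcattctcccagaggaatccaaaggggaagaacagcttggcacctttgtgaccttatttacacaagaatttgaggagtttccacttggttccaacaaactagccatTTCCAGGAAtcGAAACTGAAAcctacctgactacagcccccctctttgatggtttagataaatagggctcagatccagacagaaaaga
Tgtp2: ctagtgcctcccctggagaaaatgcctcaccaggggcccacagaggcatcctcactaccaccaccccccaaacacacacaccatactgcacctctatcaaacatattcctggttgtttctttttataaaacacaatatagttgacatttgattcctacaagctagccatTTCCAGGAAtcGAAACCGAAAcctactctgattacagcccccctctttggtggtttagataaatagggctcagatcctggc
Irgm1: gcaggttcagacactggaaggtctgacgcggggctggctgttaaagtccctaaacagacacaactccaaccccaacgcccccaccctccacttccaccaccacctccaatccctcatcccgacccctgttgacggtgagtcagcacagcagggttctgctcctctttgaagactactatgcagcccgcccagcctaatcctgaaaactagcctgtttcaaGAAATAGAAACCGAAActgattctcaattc
Ifi47: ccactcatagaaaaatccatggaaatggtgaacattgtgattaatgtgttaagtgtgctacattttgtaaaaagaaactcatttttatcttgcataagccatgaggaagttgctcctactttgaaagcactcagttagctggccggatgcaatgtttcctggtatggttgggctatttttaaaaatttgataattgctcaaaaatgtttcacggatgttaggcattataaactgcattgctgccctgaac

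In Irgm2, Igtp, Tgtp1 and Tgtp2 the GAS-type match was followed after 2 bases by the ISRE-type match, read along the gene's strand. The pair ran from 75 to 55 bases before the start in Irgm2, 45 to 25 in Igtp, 88 to 68 in Tgtp1 and 81 to 61 in Tgtp2. This arrangement, the GAS-type letters, 2 bases and then the ISRE-type repeat in its GAAA form, was read off these promoters after their letters were seen. It was searched for on both strands. It occurred in 5 of 32851 promoters of 27025 genes (0.0152%). Besides these 4 genes the fifth was Gm12185 (Irgb2b1), another IRG gene of the same chromosome. Of all promoters in windows of the same length, 7.02% held the GAS-type letters, 2.98% the ISRE-type repeat and 0.332% both. Irgm1 had a pair of overlapping ISRE-type matches between 30 and 15 bases before its start and no GAS-type match. In Ifi47 neither set of letters was found in this window. The windows are related in part: Irgm2 and Igtp shared 193 aligned bases (77.2% of the window) and Tgtp1 and Tgtp2 163 (65.2%), against 36.8% to 49.2% for the other pairs. The windows of Irgm1, Irgm2 and Tgtp1 lie inside the gene spans of the deposited table, whose outer ends differ from the RefSeq starts. Matches are a description of the letters and not of binding.

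**Figure D1:**
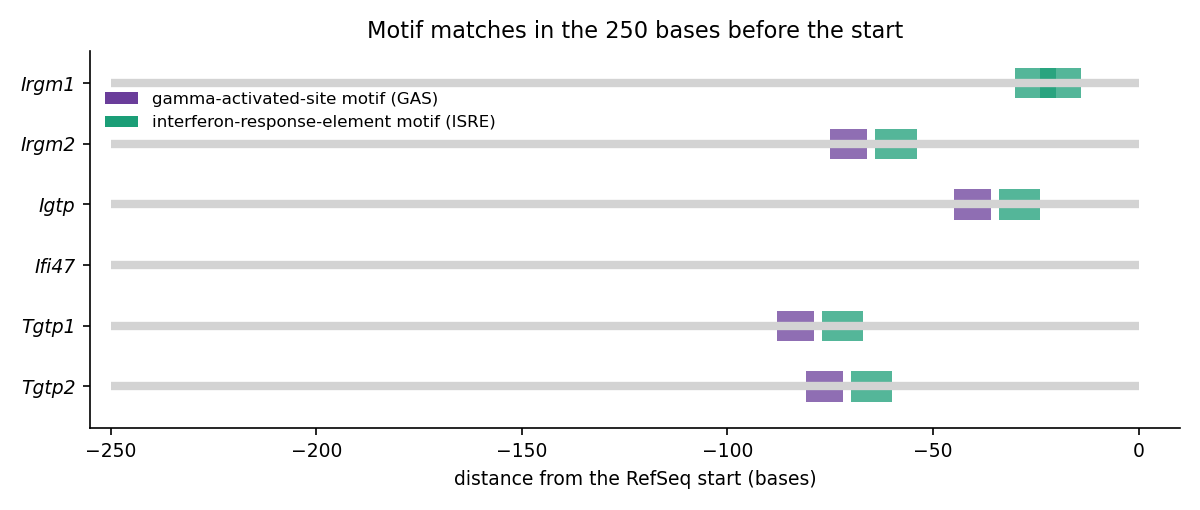
Position of motif matches in the 250 bases before the RefSeq start of 6 of the genes, as distance from the start in bases (horizontal axis). Purple blocks are GAS-type and green blocks ISRE-type matches. In Irgm2, Igtp, Tgtp1 and Tgtp2 they stand side by side with a gap of 2 bases, Irgm1 has a pair of overlapping green blocks, and Ifi47 has none.

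Levels are given in FPKM, the deposited unit, which scales fragments by gene length and library size and so allows genes to be set beside each other. Between 15856261 and 17748745 reads per SAHH-KO library and between 15540442 and 16676534 per control library were assigned to genes, and 3 reads on a gene of 1 kb were worth 0.168 to 0.197 FPKM. Ahcy itself read 5.51, 5.50 and 6.23 FPKM in SAHH-KO libraries, against 25.8, 22.6 and 24.4 FPKM in controls (log2 fold change -1.90, limma adjusted p = 1.44e-06). Of 8 macrophage markers, 7 stood above 1 FPKM in both groups, among them Adgre1, Cd68, Csf1r and Lyz2, while Mertk was near 0. Summed over the list they reached 9320 to 10586 FPKM in SAHH-KO and 8344 to 8645 FPKM in control libraries, mostly from Lyz2 and Cd14. Single markers differed unevenly. Fcgr1 averaged 12.5 FPKM in SAHH-KO and 2.61 FPKM in control, and Adgre1 165 and 78.9 FPKM. Csf1r, the only marker of this list with a lower mean in SAHH-KO, averaged 91.0 FPKM there and 107 FPKM in control. The part of these differences in the results below was not tested. None of 31 markers of 7 other cell types (B, T and NK cells, neutrophils, mast cells, eosinophils, dendritic cells, mesothelium and fibroblasts) reached 1 FPKM in either group's mean, and their sums were 0.874 to 1.17 FPKM in SAHH-KO and 0.967 to 1.13 FPKM in control. In bulk RNA more cells that express a gene and more RNA per cell cannot be told apart.

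All 8 genes were higher in SAHH-KO in the sense that the lowest SAHH-KO library lay above the highest control library. This held for 19.1% of the 22729 genes with a value above 0 in any library and for 30.7% of the 10362 genes that could be tested, a set that leaves out 3 of the 8. Summed over the 8, the libraries read 176, 190 and 175 FPKM in SAHH-KO, against 20.9, 22.3 and 20.3 FPKM in controls, or means of 180.2 ± 8.16 FPKM in SAHH-KO and 21.2 ± 1.03 FPKM in control (SD, n = 3 each), a ratio of 8.50. The whole table was tested with limma on log2(FPKM + 1), for genes that reached 1 FPKM in 3 or more of the 6 libraries. On this scale the changes of low genes come out too small. Irgm1, Irgm2, Igtp, Ifi47 and Gvin1 passed that filter and each was called higher at an adjusted p under 0.05, whereas 26.4% of all tested genes were called higher, 26.8% lower and 53.3% in either direction. Gvin1 passed the filter only through its SAHH-KO libraries and so had to differ, and Iigp1, Tgtp1 and Tgtp2 were too low to be tested. As deposited, 2736 of the 10362 tested genes were higher and 2782 lower. The filter was applied anew to rescaled values, so the number of tested genes changed. With TPM values 2223 of 12206 (18.2%) were higher and 4131 lower. With scaling by assigned reads 2025 of 10381 (19.5%) were higher and 3931 lower. The 5 GTPase genes were called higher under each. The median log2 fold change of all tested genes was -0.01 as deposited and -0.15 with either rescaling. As deposited, 242 of them (2.34%) were called higher with group means at least 5-fold apart.

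**Figure D2:**
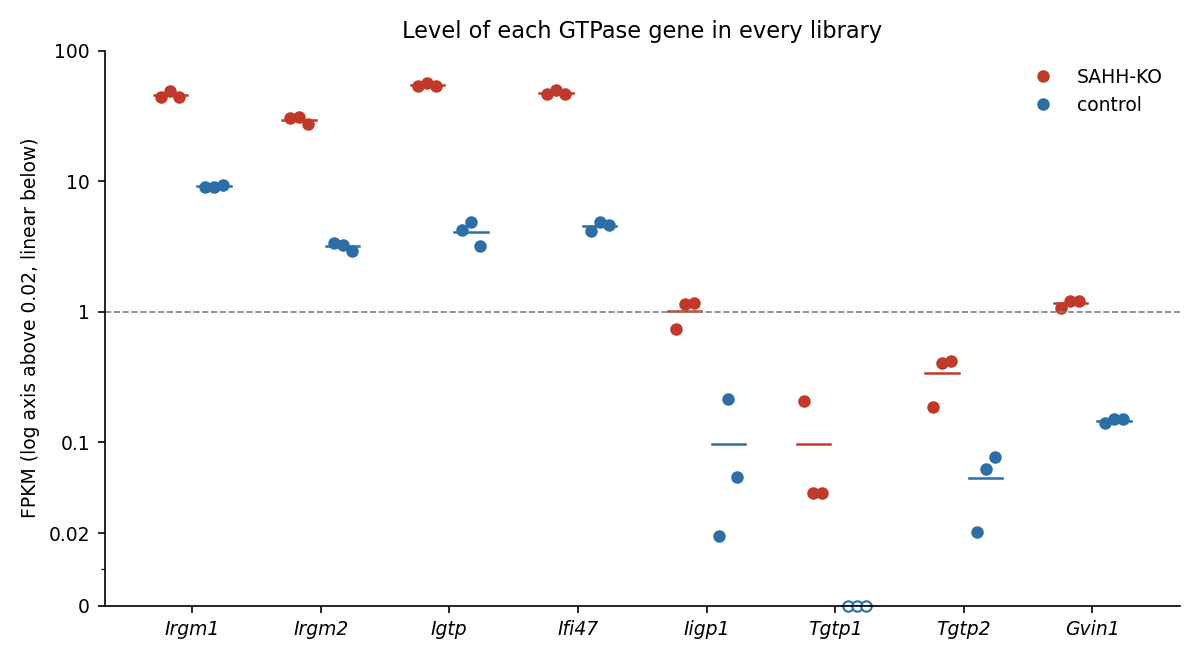
Level of each of the 8 genes in every library, in FPKM on a log axis that is linear below 0.02, with SAHH-KO (red) left of control (blue). Points are libraries, short lines are group means, open circles are libraries at 0 and the dashed line marks 1 FPKM. Red points lie above blue points for every gene. In SAHH-KO, Irgm1, Irgm2, Igtp and Ifi47 average 29.5 to 54.5 FPKM and the other genes 0.0960 to 1.16 FPKM.

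Among the regulatory genes, Irgm1, whose product also acts in autophagy, was the most abundant in control cells. It read 43.9, 49.3 and 44.5 FPKM in SAHH-KO libraries, against 9.04, 8.96 and 9.35 FPKM in controls. Every SAHH-KO library stood more than 4-fold above every control library, and the means, 45.9 ± 2.94 FPKM in SAHH-KO and 9.12 ± 0.205 FPKM in control, differed 5.04-fold (log2 fold change 2.21, SE 0.0786, limma adjusted p = 4.12e-07). Irgm1 (ENSMUSG00000046879) is a protein-coding gene on the minus strand of chromosome 11, bases 48861968 to 48871683 of GRCm38, with 2 exons in its longest transcript.

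Igtp, which mice need to resist Toxoplasma, had the largest rise of the tested genes in this group. Its libraries read 53.2, 56.5 and 53.6 FPKM in SAHH-KO and 4.19, 4.83 and 3.18 FPKM in control, so that no control library came within 10-fold of an SAHH-KO library. The means were 54.5 ± 1.81 FPKM in SAHH-KO and 4.07 ± 0.831 FPKM in control, a ratio of 13.4 (log2 fold change 3.47, SE 0.122, adjusted p = 3.87e-07). By log2 fold change it stood at place 16 of the 10362 tested genes. Irgm2, which lies on the same strand and overlaps it, read 30.3, 30.8 and 27.3 FPKM in SAHH-KO and 3.33, 3.26 and 2.93 FPKM in control (ratio 9.30, log2 fold change 2.87, SE 0.0861, adjusted p = 1.70e-07). Both are on the plus strand of chromosome 11, Igtp (ENSMUSG00000078853) at bases 58199556 to 58207591 and Irgm2 (ENSMUSG00000069874) at bases 58199618 to 58222782, each with 3 exons in the longest transcript. They share 162 exon bases, 8.01% of Igtp and 4.39% of Irgm2, and 11.8% of the 50-base words of Igtp occur in Irgm2, so a small part of their reads can be split between them. Summed over Irgm1, Irgm2 and Igtp, the regulatory genes averaged 129.9 ± 5.97 FPKM in SAHH-KO and 16.4 ± 0.816 FPKM in control (ratio 7.94).

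The effector genes differed far more among themselves in level. Ifi47, the effector of the IRGD branch, read 46.4, 50.1 and 46.6 FPKM in SAHH-KO and 4.18, 4.86 and 4.59 FPKM in control. Its replicates lay close together in both groups, and the ratio of means was 10.5 (log2 fold change 3.14, SE 0.0827, adjusted p = 8.75e-08). Ifi47 (ENSMUSG00000078920), on chromosome 11 at bases 49076587 to 49096974 of the plus strand with 3 exons in its longest transcript, shares 217 exon bases (8.77%) with other genes, 111 of them with Olfr56.

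Iigp1, the effector that coats vacuoles and oligomerises there, lay near the floor of detection in control cells and at about 1 FPKM in SAHH-KO cells. It read 0.732, 1.14 and 1.17 FPKM in SAHH-KO libraries (38, 54 and 56 reads), against 0.0191, 0.215 and 0.0538 FPKM in controls (1, 11 and 3 reads). The means, 1.01 ± 0.243 FPKM in SAHH-KO and 0.0960 ± 0.105 FPKM in control, gave a ratio of 10.5. Control replicate 2 held 11 of the 15 control reads, and without it the ratio was 27.8, on 4 control reads. Leaving out any other single library gave ratios from 7.53, without control replicate 1, to 12.0, without SAHH-KO replicate 1. Iigp1 (ENSMUSG00000054072) is on chromosome 18, bases 60376029 to 60392627 of the plus strand. Without the filter, over 22729 genes of which 12.0% were called higher, its log2 fold change was 0.87 (limma adjusted p = 0.00451).

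Tgtp1 and Tgtp2 encode near-identical effectors, and 79.4% of the 50-base words of Tgtp1 occur in Tgtp2 and 85.8% of those of Tgtp2 in Tgtp1. Tgtp2 (ENSMUSG00000078921, chromosome 11, bases 49057194 to 49064206, minus strand) had 9, 18 and 19 reads in SAHH-KO and 1, 3 and 4 reads in control. Tgtp1 (ENSMUSG00000078922, chromosome 11, bases 48985327 to 48994172, minus strand) had 11, 2 and 2 reads in SAHH-KO and none in the 3 control libraries. With 3 reads over the control group as its floor, Tgtp1 was at least 5.40-fold higher in SAHH-KO. The bound was 2.22 without SAHH-KO replicate 1, which held 11 of the 15 reads, and 3.51 to 3.66 without any 1 control replicate, where the same 3 reads stand for fewer libraries. SAHH-KO replicate 1 thus placed more reads on Tgtp1 than on Tgtp2, and the other SAHH-KO replicates did the reverse. Summed over the pair the SAHH-KO libraries had 20, 20 and 21 reads, against 1, 3 and 4 in controls. That is 0.432 ± 0.0367 FPKM in SAHH-KO and 0.0529 ± 0.0291 FPKM in control, a ratio of 8.15. In the unfiltered fit Tgtp2 had a log2 fold change of 0.34 (limma adjusted p = 0.0266) and Tgtp1 of 0.13 (adjusted p = 0.209), and the summed row one of 0.44 (adjusted p = 0.000876).

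Gvin1, whose product is far larger than the IRG proteins and whose role is little known, read 1.07, 1.21 and 1.21 FPKM in SAHH-KO and 0.139, 0.149 and 0.149 FPKM in control. The ratio of means was 7.98 (log2 fold change 0.92, SE 0.101, adjusted p = 0.000145, or 2.36 with a pseudocount of 0.1). Gvin1 (ENSMUSG00000045868) is on chromosome 7, bases 106156556 to 106215326 of the minus strand, with 4 exons in the longest transcript, and 98.3% of its 50-base words occur in Gm4070, which RefSeq also lists as a very large inducible GTPase. Reads of these genes cannot be assigned with certainty. Their sum was 4.57 ± 0.540 FPKM in SAHH-KO and 0.644 ± 0.165 FPKM in control (ratio 7.10).

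The order of the genes was not the same in both groups. In SAHH-KO Igtp stood first, followed by Ifi47 and Irgm1, whose libraries overlapped, and then by Irgm2. Gvin1 and Iigp1 overlapped at about 1 FPKM, and Tgtp2 and Tgtp1 overlapped at the bottom. Most of the sequence of Gvin1, Tgtp1 and Tgtp2 occurs in other genes. With the handling of multi-mapped reads not given, their places in either group are not certain. In control Irgm1 stood first and apart, while Ifi47 overlapped with Igtp and Igtp with Irgm2. Gvin1, Iigp1 and Tgtp2 followed, each overlapping the next, and Tgtp1 was at 0 reads. Irgm1 made up 25.0% to 26.0% of the summed FPKM of the 8 genes in SAHH-KO libraries and 40.1% to 46.0% in control libraries. Igtp made up 29.8% to 30.7% in SAHH-KO and 15.7% to 21.6% in control. Set among all tested genes by mean level, Igtp was at percentile 90.5 in SAHH-KO and 31.6 in control, and Irgm1 at 88.7 in SAHH-KO and 55.4 in control.

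The balance between abundant genes can be read within each library, where library scaling cancels. Irgm1 relative to Igtp was 0.826, 0.872 and 0.830 in SAHH-KO libraries and 2.16, 1.86 and 2.94 in controls, so Irgm1 was below Igtp in every SAHH-KO library and above it in every control library. Irgm1 relative to Irgm2 averaged 1.56 in SAHH-KO and 2.89 in control, and relative to Ifi47 0.962 in SAHH-KO and 2.01 in control. Irgm2 relative to Igtp averaged 0.541 in SAHH-KO and 0.796 in control. Of the 6 pairs among Irgm1, Irgm2, Igtp and Ifi47, 5 had ratios that did not overlap between the groups (two-sided exact permutation test, p = 0.1, the smallest that 3 against 3 libraries allow, adjusted p = 0.12 over the 6 pairs). The ratio of Irgm2 to Ifi47 overlapped (exact p = 0.2). This exact test cannot reach 0.05 at this sample size. Each of these genes enters several of the 6 ratios, so the ratios are not independent results. Ratios of other gene pairs were not computed. Whether 5 of 6 is more than among other pairs of genes was therefore not tested.

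**Figure D3:**
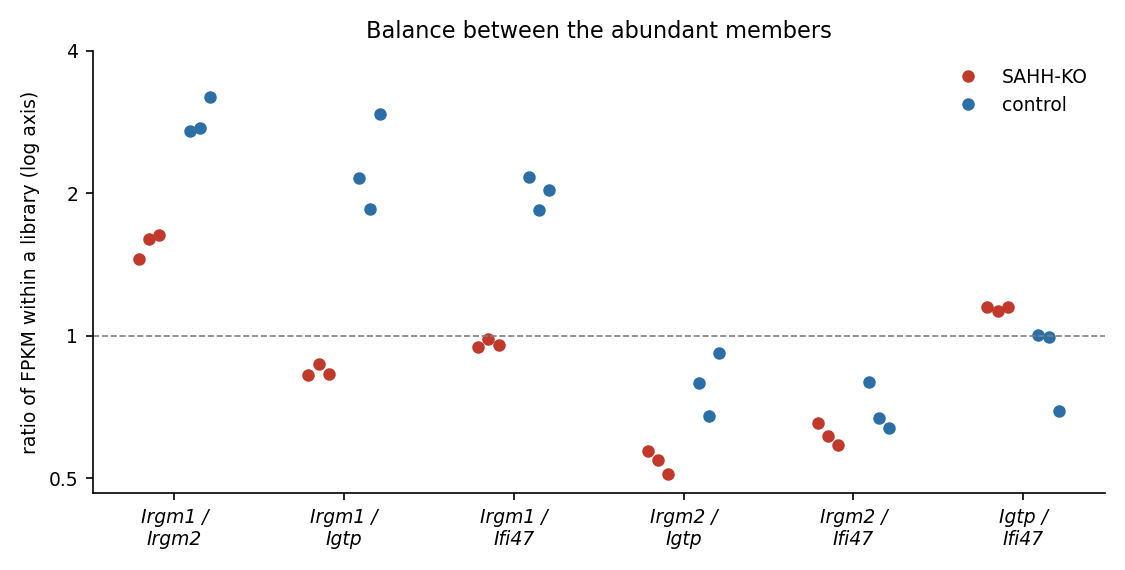
Ratio of FPKM between pairs of the 4 abundant genes within each library, on a log axis, SAHH-KO (red) left of control (blue), each point a library. Red points lie below blue points for the 3 ratios with Irgm1 on top, which average 0.843 to 1.56 in SAHH-KO and 2.01 to 2.89 in control. The groups overlap only for Irgm2 over Ifi47.

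Other members of the family were measured beside them. The list holds 10 further IRG genes, of which 5 were tested, and all 5 called higher. That count carries no weight of its own, since Gm5431, 9930111J21Rik1, 9930111J21Rik2 and Gm12250 passed the filter only through SAHH-KO libraries and had to differ. Gm5431, an IRGB gene that RefSeq also calls Irgb9b8, read 6.46, 5.68 and 5.32 FPKM in SAHH-KO and 0.186, 0.174 and 0.0869 FPKM in control, a ratio of 39.1 (log2 fold change 2.57, SE 0.103, adjusted p = 6.85e-07). The ratio is above that of each of the 8 genes with control reads, and its control level rests on 29 reads. Gm12250, which RefSeq names Irgb10 and which the deposited table lists as a processed pseudogene, averaged 3.18 ± 0.696 FPKM in SAHH-KO and 0.315 ± 0.312 FPKM in control (adjusted p = 0.000161). IRGB10 is known to attack the membranes of bacteria. 9930111J21Rik1 and 9930111J21Rik2 (Irgb5), which share most of their sequence, summed to 6.91 ± 0.491 FPKM in SAHH-KO and 0.873 ± 0.0814 FPKM in control. Irgq, a divergent member, averaged 4.67 ± 0.224 FPKM in SAHH-KO and 3.75 ± 0.261 FPKM in control (log2 fold change 0.26, adjusted p = 0.0356). Its call was lost with TPM values (adjusted p = 0.279), with scaling by assigned reads (adjusted p = 0.245), without the filter (adjusted p = 0.0647), with a replicate block (adjusted p = 0.0598) and when any library but control replicate 1 was left out (adjusted p = 0.0506 to 0.136). Among the untested genes, F830016B08Rik and Gm12187 had 0 reads and Irgc1, whose product is known from testis, had 1 read, in all 6 libraries together.

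Of 8 further genes listed as very large inducible GTPases and found in the table, 3 were tested. All 3 were called higher, against 26.4% of all tested genes. Gm4070 among them passed the filter only through SAHH-KO libraries and so had to differ. Gm8995, a transcribed pseudogene on chromosome 7, had far higher values than Gvin1, with 79.9, 84.4 and 86.4 FPKM in SAHH-KO and 23.1, 32.2 and 25.9 FPKM in control (log2 fold change 1.60, SE 0.118, adjusted p = 1.58e-05). It shares 6.42% of its 50-base words with Gvin1. Of the words of Gm8995 18.6% occur in other genes, against 99.2% of those of Gvin1. With the handling of multi-mapped reads not given, their levels cannot be compared with certainty. Gm4070 averaged 3.41 ± 0.458 FPKM in SAHH-KO and 0.498 ± 0.163 FPKM in control. Gm7592 is in the list but nothing in the annotation used marks it as a GTPase, and its call (log2 fold change 0.22, adjusted p = 0.0399) was lost with TPM values (adjusted p = 0.472), with scaling by assigned reads (adjusted p = 0.433), with a replicate block (adjusted p = 0.0517) and when any SAHH-KO library or control replicate 3 was left out (adjusted p = 0.0905 to 0.159).

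The guanylate-binding proteins (GBPs) are a related GTPase family that acts on the same vacuoles. Of 11 genes 5 were tested, with a median log2 fold change of 4.01. All 5 were higher, against 26.4% of all tested genes. Gbp7 read 19.1, 20.2 and 19.4 FPKM in SAHH-KO and 2.01, 2.51 and 2.38 FPKM in control (log2 fold change 2.64, adjusted p = 2.98e-07), and Gbp3 rose by 3.11 on the log2 scale. The tested genes, Gbp2, Gbp2b, Gbp3, Gbp5 and Gbp7, all lie on chromosome 3. The 6 that were too low to test, Gbp4, Gbp6, Gbp8, Gbp9, Gbp10 and Gbp11, all lie on chromosome 5, a split noticed after the values were seen. The highest of these, Gbp9, averaged 0.705 ± 0.152 FPKM in SAHH-KO and 0.201 ± 0.0298 FPKM in control.

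Among 16 genes that signal to interferon-inducible promoters, 15 were tested, 12 were higher and 1 lower (median log2 fold change 0.71). The shares over all tested genes were 26.4% higher and 26.8% lower. Irf1 read 30.5, 17.3 and 18.3 FPKM in SAHH-KO and 1.80, 1.53 and 1.69 FPKM in control (log2 fold change 3.06, SE 0.190, limma adjusted p = 6.43e-06), with SAHH-KO replicate 1 above the other SAHH-KO libraries. Irf9, the DNA-binding part of the type I interferon factor, averaged 18.4 ± 0.797 FPKM in SAHH-KO and 8.08 ± 0.537 FPKM in control, and its partner Stat2 had a log2 fold change of 3.54. The members named from here on were chosen after their values were seen. Of the 4 receptor genes, Ifngr1 (log2 fold change 0.43), Ifnar2 (0.71) and Ifnar1 (0.40) were higher, and Ifngr2 was at -0.09 (limma adjusted p = 0.358). With TPM values Ifnar1 lost its call (adjusted p = 0.0593) and Ifngr2 was called lower (adjusted p = 0.0262), and scaling by assigned reads gave the same calls for these genes (adjusted p = 0.0580 and 0.0314). Ifnb1, which encodes interferon-β, averaged 2.82 ± 0.551 FPKM in SAHH-KO and 0.260 ± 0.226 FPKM in control, and it passed the filter only through SAHH-KO libraries, while Ifng had 0 reads in every library. Jak2 averaged 56.9 ± 9.88 FPKM in SAHH-KO and 16.4 ± 2.14 FPKM in control. The lower gene was Jak1 (log2 fold change -0.24, adjusted p = 0.0349), and its call was lost when any library but control replicate 1 was left out (adjusted p = 0.0570 to 0.111).

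Loading of IRG proteins and GBPs onto vacuoles depends on the conjugation machinery of the Atg8 family. Of 12 tested genes 2 were higher and 3 lower, with a median log2 fold change of -0.15. Over all tested genes 26.4% were higher and 26.8% lower, so as deposited neither count stood above its share. Sqstm1, the autophagy receptor p62, averaged 1279 ± 301 FPKM in SAHH-KO and 481 ± 19.2 FPKM in control (1.38, adjusted p = 0.000122), and Map1lc3a averaged 7.94 ± 2.45 FPKM in SAHH-KO and 2.19 ± 0.448 FPKM in control (1.45, adjusted p = 0.000588). Atg5, part of the conjugating complex, averaged 7.17 ± 0.270 FPKM in SAHH-KO and 12.4 ± 1.74 FPKM in control (-0.70, adjusted p = 0.000765), and Map1lc3b 4.72 ± 0.497 FPKM in SAHH-KO and 7.77 ± 0.323 FPKM in control (-0.62, adjusted p = 0.000743). Atg12, the third lower gene, was named after its values were seen. The lower count depended on the scaling, with 7 genes lower with TPM values or scaling by assigned reads, and it was 6 without control replicate 1. More of all tested genes were lower in these fits too. They were 4131 of 12206 with TPM values, 3931 of 10381 with scaling by assigned reads and 2969 of 10362 without control replicate 1.

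**Figure D4:**
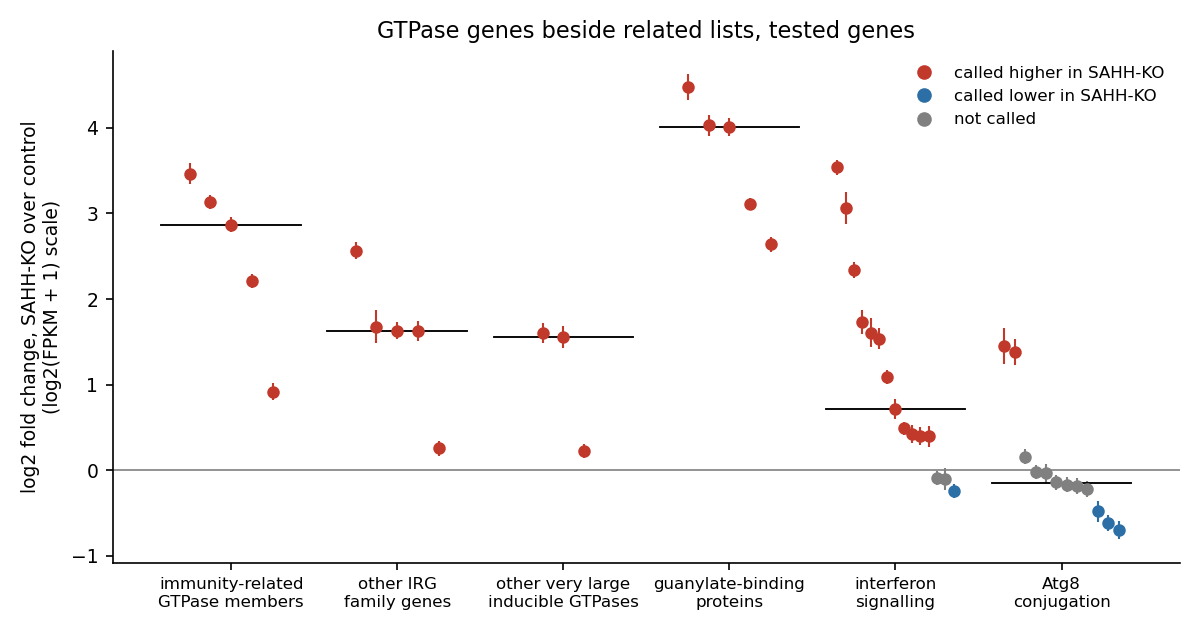
Log2 fold change of SAHH-KO over control, on the log2(FPKM + 1) scale, for every tested gene of the 6 lists, with its standard error as a vertical bar. Red points were called higher, blue lower and grey neither, and the black lines are medians of the tested genes, of which 4 in the other IRG list, 1 among the 8 GTPase genes, 1 among the other very large GTPases and 1 in the signalling list passed the filter only through SAHH-KO. The 5 tested GTPase genes lie between 0.92 and 3.47, the GBPs between 2.64 and 4.48, and the Atg8 conjugation genes on both sides of 0.

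Of the 8 genes 6 lie on chromosome 11, in a pair of clusters, and the neighbours were looked at within 100 kb. From Irgm1 to Ifi47, over 235 kb, the table holds 9 IRG genes, of which 5 were tested and higher, with log2 fold changes of 1.63 to 3.14. Of 16 other genes in or beside this stretch 6 were tested, 5 were higher and 1 was lower, between -0.73 and 1.51. The higher ones are Psme2b (0.82), which lies between IRG genes, the pseudogene Gm12188 (1.51), which lies within Ifi47, Olfr56 (1.04), whose span takes in Ifi47 and runs past it, and Rack1 (0.61) and Trim41 (0.46) outside the stretch. Olfr56 and Gm12188 reached 1 FPKM in no control library and so passed the filter only through SAHH-KO. So did 3 of the 5 tested IRG genes. The filter fixed the direction of these genes, and their calls carry no weight of their own. The lower gene is Gm12184 (-0.73), also outside. Psme2b shares 41 exon bases with 9930111J21Rik1 and Olfr56 shares 111 with Ifi47, and the sources used here do not give the strand setting of the counting. The other cluster is that of Igtp and Irgm2. The 3 IRG genes there, Gm12250 included, were higher, and of 7 other genes within 100 kb 5 were tested and Mrpl22 was lower (-0.34). Limma called 0 of them higher, and 1 at an unadjusted p under 0.05, Zfp692 (0.34, limma adjusted p = 0.0566). Over all tested genes 26.4% were called higher, so a count of 0 among 5 does not set the clusters apart. The neighbours were chosen by position and named after their values were seen.

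**Figure D5:**
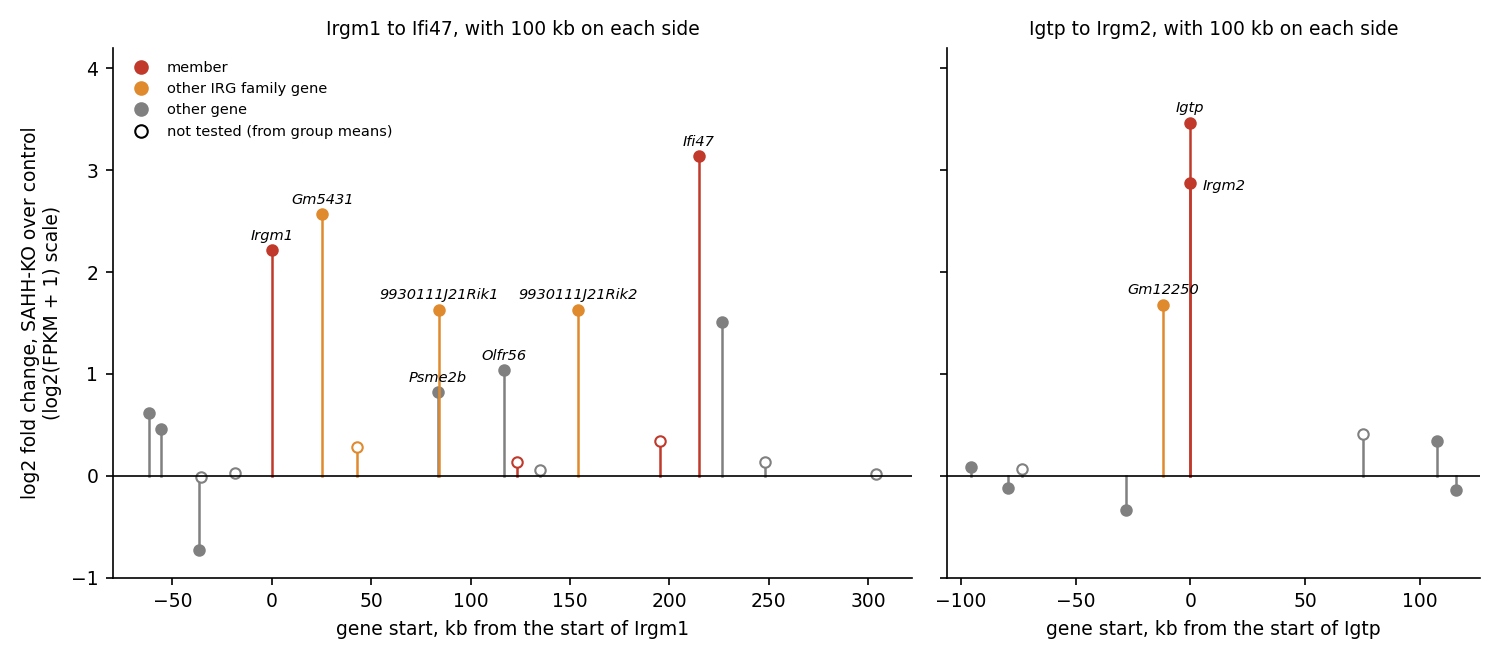
Log2 fold change of SAHH-KO over control on the log2(FPKM + 1) scale (vertical axis) against gene start, in kb from the start of Irgm1 (left) or Igtp (right), for all genes with reads in each cluster and 100 kb on each side. Red stems are the genes described here, orange other IRG genes and grey other genes, and open circles are genes too low to test, drawn from group means. Grey stems reach 1.51 on the left and stay between -0.34 and 0.34 among tested genes on the right.

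The genes most alike in pattern were sought among 8903 protein-coding genes that passed the filter. Genes with clone-type or predicted-gene names, and all names that begin with a letter followed by a digit, were left out. Likeness was measured by the root-mean-square distance over the 6 libraries between a gene's log2(FPKM + 1), less its control mean, and the median of the 5 tested GTPase genes. Parp14, an ADP-ribosyltransferase gene, was closest (distance 0.0706), with 131 ± 4.73 FPKM in SAHH-KO and 17.2 ± 1.32 FPKM in control. Next came Ifi209 (0.0992), Slfn5 (0.0997), Cd40 (0.129) and Xaf1 (0.132). Their ratios of means ran from 7.39 for Slfn5 to 17.8 for Ifi209, and their log2 fold changes from 2.70 for Xaf1 to 2.97 for Ifi209. They are on chromosomes 16, 1, 11, 2 and 11, in the order given.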

How the data were processed

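The authors deposited a single table of FPKM values per gene for 6 RNA-seq libraries, 3 per group. Each library took 1.3 µg of total RNA into a SMARTer mRNA-seq preparation, per the labels' protocols. FastQC, Trim Galore, STAR and featureCounts were used with GRCm38 and mm10, per the submitters' processing notes. Versions, strand and the handling of multi-mapped reads are not given in the sources used here.

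FPKM times gene length gave whole reads within 0.01 of a read for 100% of values above 0, and read numbers and library sizes come from that step. The FPKM rest on library sizes 0.937 to 0.960 times the assigned reads in SAHH-KO and 1.05 to 1.07 times in control. Differences were tested on log2(FPKM + 1) with limma 3.58.1 (R 4.3.3), using lmFit and trended eBayes, two-sided, with group as the only term. P-values were adjusted by Benjamini-Hochberg over 10362 genes with at least 1 FPKM in at least 3 of 6 libraries, with a threshold of 0.05, and the script was tested on simulated data. Tests for raw counts were not used, although reads could be recovered, and the deposited unit, FPKM, was kept. Ratios are of group means in FPKM. Shared sequence was measured as 50-base words of GENCODE M21 transcripts (GRCm38), and promoters came from RefSeq (GRCm38.p6), searched with Python 3.11.15.

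The GTPase genes and the lists were chosen with earlier results of these data known. Named are these 8 genes, Ahcy, up to 4 tested genes per list with the smallest p and the 5 genes most alike. Of these, 1 gene of the signalling list is not reported here. Others are said to be named after their values were seen. Alternatives were another pseudocount, other filters, TPM, no trend, a replicate block, scaling by assigned reads, summing Tgtp1 with Tgtp2 and leaving out each library.

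No 2 libraries held identical values, and read numbers within groups differed by more than sampling noise (chi-square per degree of freedom 3.97 to 29.1), so each library counted as 1 replicate. Floors of 3 reads cover counting error only, since no molecular identifiers are given.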

Additional observations from a re-analysis of the deposited data

How the results depend on the processing

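For Irgm1, Irgm2, Igtp and Ifi47, which were at 1 FPKM or more in all 6 libraries, 52 of 52 values under the alternatives kept their direction and their side of the threshold. Gvin1, which passed the filter only through SAHH-KO, kept its call where it was tested, and this adds no support. Log2 fold changes ran from 2.06 to 2.32 for Irgm1, 2.73 to 3.18 for Irgm2, 3.32 to 3.73 for Igtp, 2.99 to 3.37 for Ifi47 and 0.87 to 2.36 for Gvin1. The largest adjusted p was 0.00127, for Gvin1 without SAHH-KO replicate 3. With the mean filter Gvin1 was not tested.

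Some list counts moved. Without the filter 5 very large GTPase genes and 8 GBPs were higher, against 12.0% of all 22729 genes in that fit. The genes added to these counts were too low for the main filter. With TPM values or scaling by assigned reads 2 signalling genes and 7 Atg8 conjugation genes were lower. Of all tested genes, 4131 of 12206 and 3931 of 10381 were lower in these fits. Both fits called 10 signalling genes and 4 other IRG genes higher. With a replicate block 0 signalling genes were lower, and 4 other IRG genes and 2 other very large GTPase genes were higher. Leaving out single libraries gave 4 to 5 other IRG genes, 2 to 3 other very large GTPase genes and 11 to 12 signalling genes higher. When single libraries were left out, 0 to 1 signalling genes and 3 to 6 Atg8 conjugation genes were lower, and 2236 to 2934 genes of the table were higher and 2199 to 2969 lower. The causes were not tested. Deviations of equally numbered libraries correlated at 0.0955, 0.101 and -0.00556, and those of differently numbered libraries at -0.117 to 0.0284. Such weak correlations cannot settle whether the replicate numbers pair the libraries. The block left 5 of the 8 GTPase genes called higher. Low read numbers limit Iigp1, Tgtp1 and Tgtp2, with 15, 0 and 8 reads over the control group. Tgtp1 and Tgtp2 share most of their sequence, and the handling of multi-mapped reads is not given. How far depth or the handling of shared reads set their low numbers was not tested.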
